A study of Bos taurus with 6 samples.

Results

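The genes described here are those of the unfolded protein response and the integrated stress response, measured by microarray in cultured stromal fibroblasts of the bovine ovary. They were chosen by symbol as 36 known genes of these responses, and 34 of them were measured, out of 18010 genes in all. Each of the 34 had a single row of the expression table. PDIA6, whose row is shared with another symbol, and CEBPB were not analysed here. The study had 3 cultures of stromal fibroblasts from ovarian tumor and 3 from normal ovary of cattle (Bos taurus), all grown in DMEM/F12 medium with serum and given no specific treatment. The labels give no tumor type, animal, breed, age or passage, and leave it unsaid whether the cultures came from separate animals, so the p-values reflect the spread of these cultures alone, and that spread could be technical. The comparison asked which of these transcripts differed between tumor and normal stromal cells.

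Proteins that enter the endoplasmic reticulum (ER) are folded there by chaperones, above all by HSPA5 (BiP), an HSP70-type ATPase that works with J-domain co-chaperones and nucleotide exchange factors. When unfolded protein accumulates, the sensors ERN1 (IRE1), ATF6 and EIF2AK3 (PERK) raise chaperone and degradation genes, and PERK also slows translation by phosphorylating eIF2, which favours translation of ATF4. Other eIF2 kinases reach ATF4 from amino acid shortage, heme shortage or viral RNA, and this shared branch is the integrated stress response. Fibroblasts secrete much matrix protein and therefore depend on this machinery. The roles given for single genes below were worked out mainly in human and mouse cells. Sensor activity, eIF2 phosphorylation and the splicing of XBP1 mRNA were not measured by these values.

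Levels are on the log2 scale of RMA, a method that adjusts background, equalises the arrays and summarises their probes. The medians of the cultures lay between 4.45 and 4.55, and precision is limited by having 3 arrays a group. Pearson correlations over all rows were 0.988 to 0.991 between tumor samples, 0.954 to 0.974 between tumor and normal samples, and 0.983 to 0.991 between normal samples. The cells carried fibroblast markers. COL1A1, a main chain of fibrillar collagen, stood at 11.89 to 12.00 in tumor and 11.85 to 12.04 in normal cultures. Of 12 fibroblast markers, 3 were called higher in tumor cultures: S100A4 by 3.46, PDGFRA by 0.89 and COL3A1 by 0.61 on the log2 scale (adjusted p = 0.000945, 0.0204 and 0.0228). The unlogged levels of all 12 were summed, and the log2 of this sum was 14.89 to 14.93 in tumor and 14.63 to 14.79 in normal cultures. The sums of other markers below were made in the same way, over all measured markers of a list. The leukocyte marker PTPRC lay at 2.20 to 2.44 and the epithelial marker EPCAM at 1.90 to 2.20 over the 6 cultures, under 3.54, the 95th percentile of olfactory receptor genes, which serves as a guide to background. All 34 measured members lay above that level in at least 1 group. Some genes used as markers of other ovarian cells did differ. Of 7 measured epithelial markers, 3 were called lower in tumor cultures (KRT18, KRT19 and KRT8). The sum over all 7 was 6.38 to 6.48 in tumor and 7.42 to 8.65 in normal cultures. Of 5 theca and luteal markers, 2 were called higher (HSD3B1 and CYP17A1), and the sum over all 5 was 9.81 to 10.37 in tumor and 7.80 to 8.34 in normal cultures. Of 6 granulosa markers FOXL2 was called, lower, at 3.08 to 3.49 in tumor cultures, under the olfactory receptor level, and 4.96 to 5.16 in normal cultures (adjusted p = 0.00043; at least 2.82-fold lower, with tumor values set to that level). The granulosa markers summed to 6.04 to 6.33 in tumor and 6.37 to 6.45 in normal cultures. Of 6 endothelial markers only EMCN was called, higher, and the sum was 8.63 to 9.52 in tumor and 7.49 to 7.80 in normal cultures. Of 8 leukocyte markers only CD68 was called, higher, and the sum was 7.47 to 7.71 in tumor and 6.88 to 7.17 in normal cultures. PDGFRA and COL3A1 lost their calls with the omission of tumor replicate 1 or 2 (adjusted p from 0.0708 to 0.0815), KRT8 lost its call with the omission of tumor replicate 1, 2 or 3 or normal replicate 1 or 2, and CYP17A1 with that of tumor replicate 2 or any normal replicate. The part of these markers in the results below was not tested. In bulk RNA, fewer cells of a type and less RNA per cell cannot be told apart.

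**Figure D1:**
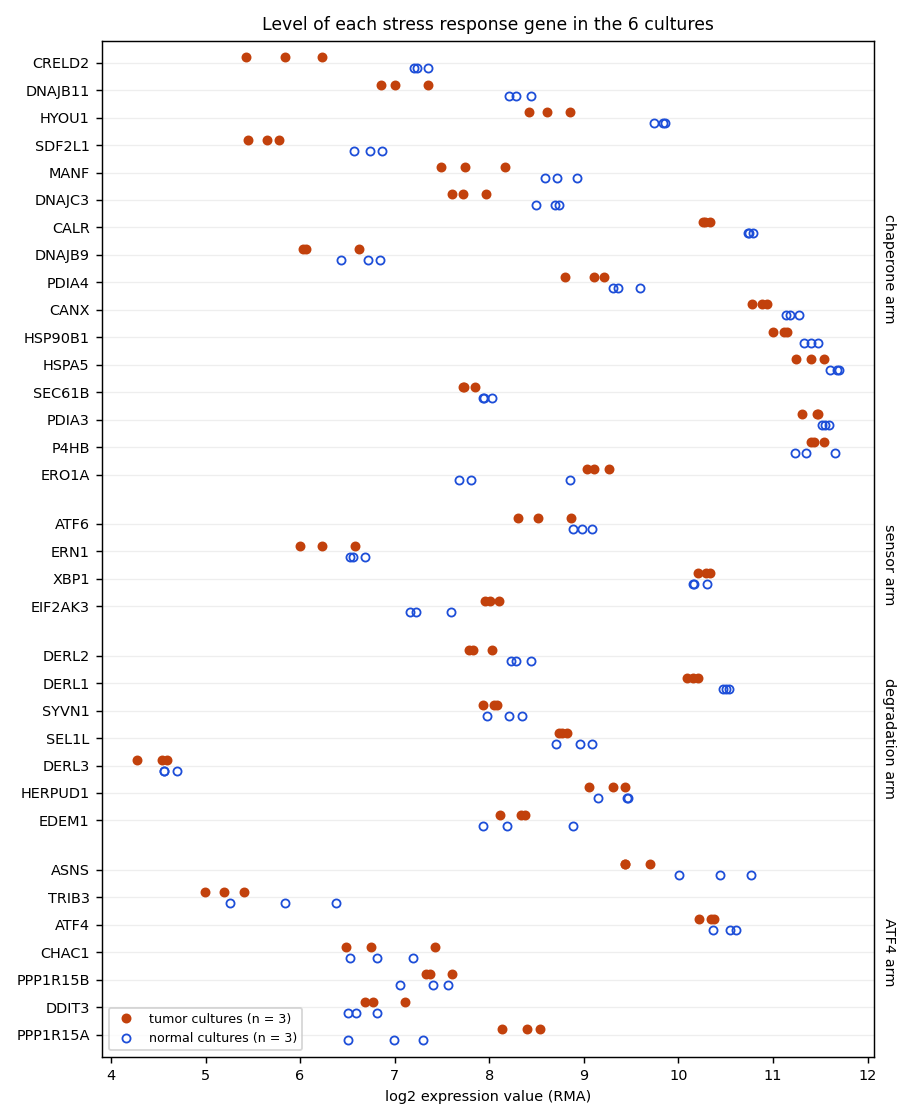
Log2 expression value (x axis) of the 34 measured genes (y axis, grouped by arm and ordered by fold change), with filled circles for the 3 tumor cultures and open circles for the 3 normal cultures. The circles of the groups do not overlap for 20 genes. They lie farthest apart for CRELD2, DNAJB11, HYOU1, SDF2L1, MANF and DNAJC3, with tumor lower, and for PPP1R15A, with tumor higher.

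The ER genes CRELD2, DNAJB11, HYOU1, SDF2L1, MANF and DNAJC3 were lower in tumor than in normal stromal cells, while in the ATF4 arm PPP1R15A was higher and ASNS lower. Of the 34 measured members, 9 fell and 3 rose in tumor cultures (limma, Benjamini-Hochberg adjusted p under 0.05 over all genes). Across all 18010 genes, 18% were called by the same rule, 9.44% lower and 8.56% higher. The members' median log2 fold change was -0.29, against 0.02 over all genes. By arm, 7 of 16 chaperone and translocation genes fell and 1 rose, 1 of 7 degradation genes fell, 1 of 4 sensor genes rose, and of 7 genes of the ATF4 arm 1 fell and 1 rose. The samples of tumor and normal cultures did not overlap for 20 members, 17 of them lower and 3 higher in tumor; over all genes 18.1% were separated in this way with tumor lower and 17.6% with tumor higher. The number of members that fell was 14 with array weights, and with tumor replicate 2 or normal replicate 2 omitted 1 member rose.

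The deepest fall among the members was that of CRELD2, an ER-resident protein with epidermal growth factor-like repeats that is induced by ER stress. Its log2 level was 5.43, 5.84 and 6.23 in tumor cultures, against 7.35, 7.20 and 7.24 in normal cultures. Every tumor culture lay below every normal culture, by at least 0.97. Its log2 fold change was -1.43 ± 0.20 (SE; adjusted p = 0.00291, limma), so tumor cultures held 37.1% of the normal level.

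Several genes whose proteins work with HSPA5 or bind it were also lower. DNAJB11 (ERdj3), the J-domain protein that hands unfolded clients to HSPA5, stood at 6.86, 7.0 and 7.35 in tumor cultures, against 8.21, 8.28 and 8.44 in normal cultures. The groups did not overlap, and the log2 fold change was -1.24 ± 0.15 (adjusted p = 0.00184). HYOU1 (GRP170), the large HSP70-related protein that exchanges the nucleotide of HSPA5, stood at 8.42, 8.61 and 8.85 in tumor cultures, against 9.74, 9.86 and 9.84 in normal cultures. Normal cultures lay close together, and tumor cultures held 43.9% of their level (log2 fold change -1.19 ± 0.14, adjusted p = 0.0013). SDF2L1, which forms a complex with DNAJB11, stood at 5.45, 5.65 and 5.78 in tumor cultures, against 6.87, 6.74 and 6.57 in normal cultures. Here too all tumor values were lower, by a log2 fold change of -1.10 ± 0.14 (adjusted p = 0.00191). DNAJC3 (p58IPK), a J-domain co-chaperone in the ER lumen, stood at 7.61, 7.72 and 7.96 in tumor cultures, against 8.49, 8.74 and 8.69 in normal cultures. It fell by 0.88 ± 0.14 on the log2 scale (adjusted p = 0.00484). MANF, an ER protein that binds HSPA5 and can be secreted as a survival factor, stood at 7.49, 7.74 and 8.17 in tumor cultures, against 8.72, 8.59 and 8.93 in normal cultures. Its groups were apart as well, with a log2 fold change of -0.95 ± 0.19 (adjusted p = 0.0123). CRELD2, DNAJB11, HYOU1, SDF2L1, DNAJC3 and MANF kept their calls whichever of the 6 cultures was omitted, with adjusted p-values of at most 0.0492.

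HSPA5 itself, which these proteins serve, differed less. Its log2 level was 11.24, 11.40 and 11.54 in tumor cultures, against 11.60, 11.68 and 11.70 in normal cultures. The samples did not overlap, but the log2 fold change of -0.27 ± 0.12 was not called (adjusted p = 0.177), with a 95% interval from -0.54 to 0.01. This interval lies apart from those of DNAJB11 (-1.59 to -0.89), HYOU1 (-1.50 to -0.87), SDF2L1 (-1.41 to -0.79) and CRELD2 (-1.88 to -0.98); the difference between genes was not tested. It begins just above the end of that of DNAJC3 (-1.19 to -0.56) and overlaps that of MANF (-1.38 to -0.51). DNAJB9 (ERdj4), another J-domain partner of HSPA5, which also restrains ERN1, stood at 6.06, 6.03 and 6.62 in tumor cultures, against 6.84, 6.72 and 6.43 in normal cultures. Tumor replicate 3 overlapped the normal range, the log2 fold change was -0.43 ± 0.19 (adjusted p = 0.175), and the gene was called without tumor replicate 3 (adjusted p = 0.0472).

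Transcripts of the other folding proteins, most of them abundant, and of SEC61B were lower by small amounts or not at all. CALR (calreticulin), the soluble lectin chaperone that holds glycoproteins during folding, fell: it stood at 10.28, 10.26 and 10.33 in tumor cultures, against 10.75, 10.73 and 10.79 in normal cultures (log2 fold change -0.47 ± 0.10, adjusted p = 0.0182). The groups were tight and well apart, at 72.4% of the normal level, yet the call was lost without tumor replicate 1, tumor replicate 2 or normal replicate 2 (adjusted p = 0.0575, 0.0687 and 0.0627). CANX (calnexin), its membrane-bound relative, differed by -0.33 ± 0.11 (adjusted p = 0.0761), and HSP90B1 (GRP94), the HSP90 of the ER, by -0.31 ± 0.11 (adjusted p = 0.0911). Neither overlapped between groups. The disulfide isomerases PDIA4 and PDIA3 differed by -0.38 ± 0.15 (adjusted p = 0.12) and -0.14 ± 0.11 (adjusted p = 0.445). SEC61B, a subunit of the channel through which proteins enter the ER, differed by -0.20 ± 0.11 (adjusted p = 0.258). P4HB, a disulfide isomerase that is also a subunit of collagen prolyl 4-hydroxylase, stood at 11.43, 11.40 and 11.54 in tumor cultures, inside the range of 11.23 to 11.65 in normal cultures. Its log2 fold change was 0.05, with a 95% interval from -0.27 to 0.36. In this arm 6 genes had a mean log2 level above 10, and their log2 fold changes ran from -0.47 to 0.05, while the deepest falls were of genes below that level. Over the 16 genes, level and log2 fold change had a Spearman correlation of 0.61 and a Pearson correlation of 0.46. These values describe genes that share the same 6 arrays. Whether the arrays read fold changes equally at high and low levels, HSPA5 and its dimmer partners included, was not tested.

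ERO1A, the oxidase that recharges disulfide isomerases and that is also induced by hypoxia, went the other way. It stood at 9.11, 9.03 and 9.27 in tumor cultures, against 8.85, 7.81 and 7.68 in normal cultures. Normal replicate 1 lay close to the tumor cultures and the other two more than 1 log2 unit below it. The log2 fold change was 1.02 ± 0.29 (adjusted p = 0.0442), and the call was lost in 5 of the 6 fits with a culture omitted, namely without tumor replicate 1, 2 or 3 or normal replicate 2 or 3 (adjusted p from 0.0985 to 0.148).

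**Figure D2:**
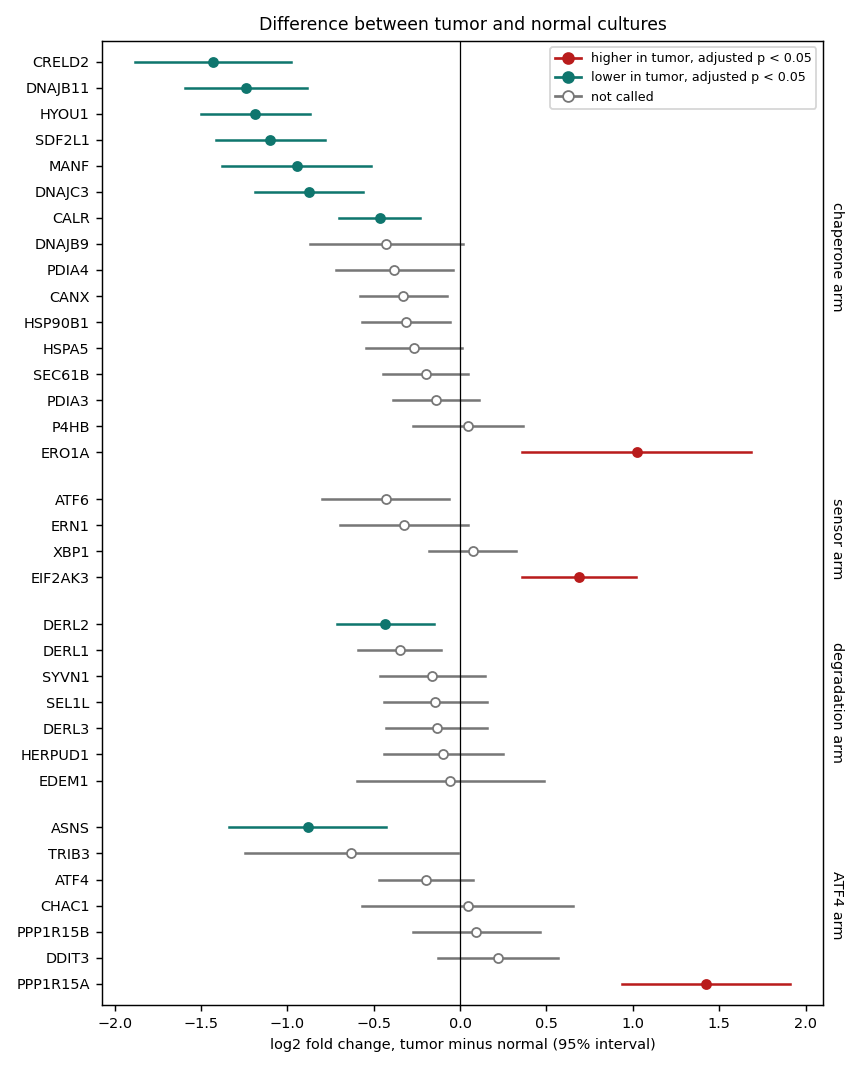
Log2 fold change of tumor minus normal cultures (x axis) for the 34 measured genes (y axis, grouped by arm), with 95% intervals from limma as bars; filled circles mark genes called at an adjusted p under 0.05. CRELD2 has the lowest value, at -1.43, PPP1R15A the highest, at 1.42, and the interval of HSPA5 ends at 0.01.

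Of the sensors, only EIF2AK3 (PERK), the eIF2 kinase of the ER membrane, was called. It stood at 7.95, 8.10 and 8.01 in tumor cultures, against 7.60, 7.23 and 7.16 in normal cultures. All tumor values were higher, by a log2 fold change of 0.69 ± 0.14 (adjusted p = 0.0148), a call lost without tumor replicate 2 (adjusted p = 0.0592) or normal replicate 2 (adjusted p = 0.0634). ATF6, the transcription factor released from the membrane by proteolysis in the Golgi, stood at 8.30, 8.51 and 8.86 in tumor cultures, against 8.98, 9.09 and 8.89 in normal cultures. Its log2 fold change was -0.43 ± 0.16 (adjusted p = 0.107; 0.0378 without tumor replicate 3, the tumor culture nearest to the normal ones). ERN1 (IRE1), the kinase and RNase that splices XBP1 mRNA, stood at 6.0, 6.23 and 6.58 in tumor cultures, against 6.56, 6.69 and 6.53 in normal cultures, and the groups overlapped (-0.32 ± 0.16, adjusted p = 0.221). XBP1, its target and a main activator of chaperone and degradation genes, stood at 10.33, 10.29 and 10.21 in tumor cultures, against 10.16, 10.30 and 10.15 in normal cultures. This total XBP1 level differed by 0.07, with a 95% interval from -0.18 to 0.33.

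Genes of ER-associated degradation, which returns misfolded proteins to the cytosol for the proteasome, differed little. All 7 had negative log2 fold changes, from -0.43 to -0.06, with a median of -0.14. DERL2, a derlin of the exit channel, stood at 7.79, 7.83 and 8.03 in tumor cultures, against 8.23, 8.28 and 8.44 in normal cultures. It fell by 0.43 ± 0.12 on the log2 scale (adjusted p = 0.0448), just past the threshold, and lost its call in 5 of the 6 fits with a culture omitted, namely without tumor replicate 1 or 2 or any normal replicate (adjusted p from 0.0565 to 0.138). Its relative DERL1 stood at 10.15, 10.09 and 10.21 in tumor cultures, against 10.47, 10.50 and 10.53 in normal cultures. These groups were apart, and the log2 fold change was -0.35 ± 0.10 (adjusted p = 0.0539). The remaining genes overlapped between groups. HERPUD1, a stress-induced scaffold of the degradation complex and a target of both ATF6 and ATF4, differed by -0.10 (95% interval -0.44 to 0.25). The ubiquitin ligase SYVN1 (HRD1) differed by -0.16 (-0.46 to 0.14) and its adaptor SEL1L by -0.14 (-0.44 to 0.15). EDEM1, a mannosidase-like protein that marks glycoproteins for disposal, differed by -0.06 (-0.60 to 0.48), with normal replicate 1 high at 8.88 and the other normal cultures at 8.19 and 7.93. DERL3 was the dimmest member, at 4.28 to 4.59 in tumor and 4.56 to 4.70 in normal cultures.

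In the ATF4 arm, PPP1R15A (GADD34), the stress-induced subunit that directs a phosphatase to eIF2 and so restores translation, rose. It stood at 8.13, 8.54 and 8.40 in tumor cultures, against 7.30, 6.99 and 6.51 in normal cultures. The groups were 0.83 apart at their nearest, and the 2.68-fold rise (log2 fold change 1.42 ± 0.21, adjusted p = 0.00404) was called whichever culture was omitted, with adjusted p-values of at most 0.0202. PPP1R15B (CReP), the constitutive subunit with the same task, stood at 7.33, 7.61 and 7.37 in tumor cultures, against 7.06, 7.41 and 7.56 in normal cultures. Its log2 fold change was 0.09, with a 95% interval from -0.27 to 0.46 that ends below the interval of PPP1R15A (0.94 to 1.91).

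ASNS (asparagine synthetase), a classical ATF4 target of amino acid shortage, fell. It stood at 9.43, 9.44 and 9.70 in tumor cultures, against 10.01, 10.77 and 10.44 in normal cultures. The normal cultures were spread more widely but all lay above the tumor cultures (log2 fold change -0.88 ± 0.20, adjusted p = 0.0195), and the call was lost without tumor replicate 1 or 2 or normal replicate 2 or 3 (adjusted p from 0.0506 to 0.0704). TRIB3, a pseudokinase induced by ATF4 and DDIT3, stood at 4.99, 5.19 and 5.41 in tumor cultures, against 5.26, 6.38 and 5.84 in normal cultures. Normal replicate 1 overlapped the tumor range, and the log2 fold change of -0.63 ± 0.27 was called only when that culture was left out (adjusted p = 0.152; 0.0242 without normal replicate 1) or with array weights. ATF4 mRNA, whose protein is controlled mainly by translation, stood at 10.22, 10.34 and 10.38 in tumor cultures, against 10.37, 10.61 and 10.55 in normal cultures. It differed by -0.20 (95% interval -0.47 to 0.08). DDIT3 (CHOP), the pro-apoptotic factor downstream of ATF4, differed by 0.22 (-0.13 to 0.57), and its tumor values of 7.11, 6.77 and 6.69 overlapped normal values of 6.59, 6.81 and 6.51. CHAC1, a glutathione-degrading enzyme induced by ATF4, was at 6.48, 6.75 and 7.43 in tumor cultures and 6.81, 7.19 and 6.53 in normal cultures, with a 95% interval of the difference from -0.57 to 0.65.

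In the chaperone arm, the tumor cultures differed among themselves in a shared way. Tumor replicate 3 was the highest tumor culture for 15 of the 16 chaperone genes, all but SEC61B, and for 25 of all 34 members. Tumor replicate 1 was the lowest for 11 of the 16 and for 25 of the 34. How often each culture ranked highest or lowest over all genes was not counted, so these counts have no such share beside them. The genes also share the same arrays. The mean log2 level of all genes was 5.15, 5.14 and 5.13 in tumor replicates 1, 2 and 3. The median distance of the chaperone genes from their normal mean was -0.54 in tumor replicate 1, -0.41 in tumor replicate 2 and -0.255 in tumor replicate 3. The normal cultures showed no such pattern in this arm, where replicates 1, 2 and 3 were highest for 9, 3 and 4 genes. In the ATF4 arm, however, normal replicate 2 was the highest normal culture for 5 of 7 genes. In the sensor arm, normal replicate 3 was the lowest normal culture for 4 of 4 genes, but close to the next lowest. The values were 10.15 against 10.16 for XBP1, 6.53 against 6.56 for ERN1, 7.16 against 7.23 for EIF2AK3 and 8.89 against 8.98 for ATF6. The log2 of the summed levels of the theca and luteal markers also differed among tumor cultures, at 10.37, 10.08 and 9.81 in replicates 1, 2 and 3. Within that list, HSD3B1 and INSL3 were instead lowest in tumor replicate 1. The endothelial sum (9.52, 8.94 and 8.63) and the leukocyte sum (7.71, 7.61 and 7.47) had the same order as the theca and luteal sum. The fibroblast, epithelial and granulosa sums did not. The part of these markers in the spread was not tested. With tumor replicate 3 omitted 11 members fell, and with tumor replicate 1, tumor replicate 2 or normal replicate 2 omitted 6 fell.

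**Figure D3:**
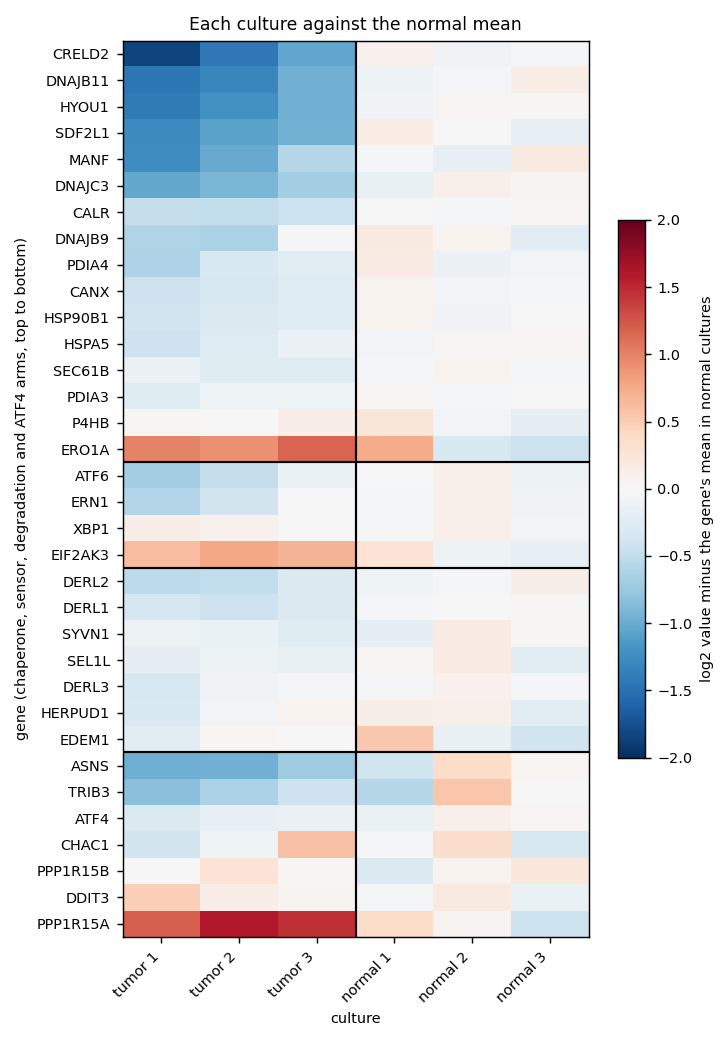
Log2 value minus the gene's mean over the normal cultures (colour scale, blue below and red above) for 34 genes (rows, by arm) in the 3 tumor and 3 normal cultures (columns). The upper rows from CRELD2 to DNAJC3 are bluest in tumor replicate 1, where the chaperone arm has a median of -0.54, and palest of the tumor cultures in replicate 3, at -0.255.

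Other genes of these pathways, taken from 7 lists of 156 genes, were set beside the members. Of 148 measured, 26 fell (17.6%) and 15 rose (10.1%), with a median log2 fold change of -0.10. Over all 18010 genes 9.44% fell and 8.56% rose, so the share that rose lay near that of all genes. The counts of each list below are to be read against these shares. With a culture omitted, 13 to 32 fell and 4 to 16 rose. The count of falls was 14 on omission of tumor replicate 1 and 13 on omission of tumor replicate 2 or normal replicate 2. The count of rises was 6, 5 and 7 on omission of tumor replicates 1, 2 and 3, and 4 and 5 on omission of normal replicates 2 and 3.

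The list nearest to the ATF4 arm moved the most often. Of 36 measured targets of ATF4 and DDIT3, 12 fell (33.3%) and 2 rose (5.56%), with a median of -0.45. Their mean log2 level was 7.44, 7.62 and 7.70 in tumor replicates 1, 2 and 3. It was 7.88, 8.25 and 7.73 in normal replicates 1, 2 and 3. Among the normal cultures, each gene that fell was highest in replicate 2. With normal replicate 2 omitted, 9 fell. Omitting tumor replicate 1 or 2 left 8 that fell, and omitting tumor replicate 2 or 3 or normal replicate 2 or 3 left 1 that rose. The serine synthesis enzymes PSPH (-1.52 ± 0.29, adjusted p = 0.0105) and PSAT1 (-1.37 ± 0.25, adjusted p = 0.00842) fell, as did the cystine transporter SLC7A11 (-1.25 ± 0.25, adjusted p = 0.0128; 0.0513 without tumor replicate 2). The other 9 that fell, named after their values were seen, were the amino acid transporters SLC7A5 and SLC6A9, the aminoacyl-tRNA synthetases MARS1, SARS1, GARS1 and AARS1, the one-carbon enzyme MTHFD2, the transsulfuration enzyme CBS and the tRNA exporter XPOT (log2 fold changes from -1.16 to -0.69). ATF3, a stress-induced repressor and an early-response factor, rose: it stood at 6.32, 7.61 and 7.42 in tumor cultures, against 5.42, 5.15 and 5.41 in normal cultures (1.79 ± 0.31, adjusted p = 0.0075). GDF15, also named after its values were seen, was the second that rose (0.76 ± 0.21, adjusted p = 0.0413, limma). It lost its call on omission of tumor replicate 2 or 3 or normal replicate 2 or 3. Among genes taken as ATF4 or DDIT3 targets, the 12 of this list and the member ASNS were thus called lower in tumor cultures. ATF3 and GDF15 of this list and the member PPP1R15A were called higher. Which factor acted on each gene was not tested.

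The kinases that phosphorylate eIF2 did not move together. Besides the rise of EIF2AK3, EIF2AK4 (GCN2), the sensor of uncharged tRNA, fell. It stood at 7.0, 6.98 and 6.76 in tumor cultures, against 8.30, 7.94 and 7.74 in normal cultures (-1.08 ± 0.16, adjusted p = 0.00443). EIF2AK1, the heme-regulated kinase, and EIF2AK2 (PKR), the kinase of double-stranded RNA, were picked for completeness after their values were seen. They differed by -0.11 (95% interval -0.38 to 0.15) and 0.09 (-0.18 to 0.37). The list of eIF2 kinases and eIF2 machinery left out EIF2AK3, which was counted in the sensor arm. Of its 12 genes, 2 fell (16.7%, against 9.44% of all genes) and 0 rose in limma (0 rose at an unadjusted p under 0.05 as well). Without normal replicate 1, 4 fell, and on omission of any other culture 1 fell. The second was EIF2B5, the catalytic subunit of the eIF2 exchange factor (-0.48 ± 0.13, adjusted p = 0.0429), a call kept only without normal replicate 1 among those fits (adjusted p from 0.0748 to 0.139 in the others).

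Among other stress sensors and membrane-bound factors, 2 of 12 rose (16.7%) and 1 fell (8.33%), against 8.56% and 9.44% of all genes. MAP3K5 (ASK1), a kinase that ERN1 engages through TRAF2, rose: it stood at 6.10, 5.61 and 5.18 in tumor cultures, against 3.37, 2.97 and 3.03 in normal cultures (adjusted p = 0.000575). All normal values lay under the olfactory receptor level of 3.54, so the size is given as a bound, at least 4.26-fold higher with normal values set to that level. CREBRF, a regulator that promotes the breakdown of CREB3, rose by 1.53 ± 0.18 (adjusted p = 0.00129). ATF6B, the relative of ATF6, fell by 0.83 ± 0.14 on the log2 scale (adjusted p = 0.00702). These 3 calls were kept without any 1 of the samples, with adjusted p-values of at most 0.0329. Without normal replicate 1, 3 genes of this list rose.

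Most genes that bring proteins into the ER and glycosylate them were not called (17 of 20 and 11 of 14), and the few called were lower. The share that fell was 15% for translocation and 21.4% for glycosylation, against 9.44% of all genes. Without overlap between groups, 9 translocation genes were lower and 4 higher in tumor cultures, and 6 glycosylation genes were lower and 1 higher. Over all genes these shares were 18.1% lower and 17.6% higher. Of 20 genes of translocation and signal peptide removal, 3 fell: SRP9 of the signal recognition particle (-0.63 ± 0.13, adjusted p = 0.015), SPCS2 of the signal peptidase (-0.54 ± 0.11, adjusted p = 0.013) and the channel subunit SEC61A1 (-0.54 ± 0.11, adjusted p = 0.0119). SRP9 was lost without tumor replicate 1 or 2 or normal replicate 2 and SEC61A1 without tumor replicate 2 or normal replicate 2 (adjusted p from 0.0508 to 0.0608), and 1 gene of the list fell without tumor replicate 2 or normal replicate 2 and 2 without tumor replicate 1. Of 14 genes of N-glycosylation and glucose trimming, 3 fell: UGGT1, the folding sensor that returns glycoproteins to the lectin chaperones (-0.65 ± 0.15, adjusted p = 0.0198), and the oligosaccharyltransferase subunits DDOST (-0.49 ± 0.11, adjusted p = 0.0212) and OSTC (-0.46 ± 0.13, adjusted p = 0.0412). Without tumor replicate 1, tumor replicate 2 or normal replicate 2, limma called 0 genes of this list lower (4 at an unadjusted p under 0.05 each time), with UGGT1 at adjusted p = 0.0525, 0.0613 and 0.0769. OSTC was also lost without tumor replicate 3 or normal replicate 3, where 2 genes fell, and without normal replicate 1 there was 1 gene of the list that rose.

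The other ER folding genes did not follow the chaperone arm. Of 30 measured, 7 rose (23.3%) and 1 fell (3.33%), with a median of 0.10. QSOX1, a secreted sulfhydryl oxidase (0.89 ± 0.19, adjusted p = 0.0161), PRDX4, the ER peroxiredoxin (0.70 ± 0.17, adjusted p = 0.0267), FKBP7, a prolyl isomerase (0.58 ± 0.14, adjusted p = 0.0243), and SIL1, a second nucleotide exchange factor of HSPA5 (0.52 ± 0.14, adjusted p = 0.0369), rose. The log2 fold changes of SIL1 and HYOU1, which serve the same step, thus had opposite signs. The number of genes that rose depended on which culture was omitted. In limma 6 genes of the list rose without normal replicate 1, but 0 rose without normal replicate 2 (10 at an unadjusted p under 0.05), 1 rose without tumor replicate 1 or 2 or normal replicate 3, and 2 rose without tumor replicate 3. The only fall was of SERPINH1 (HSP47), the collagen chaperone, named after its values were seen, at 10.85, 10.90 and 10.82 in tumor cultures, against 11.21, 11.37 and 11.31 in normal cultures (-0.44 ± 0.11, adjusted p = 0.0267). It was called without normal replicate 1, where 2 genes fell, and lost on omission of any other culture (adjusted p from 0.0621 to 0.105), where limma called 0 lower (1 to 5 at an unadjusted p under 0.05). QSOX1 was lost without tumor replicate 1 or 2 or normal replicate 2 (adjusted p from 0.0507 to 0.0512). FKBP7 was lost in these fits and without normal replicate 3, PRDX4 in the same fits as FKBP7 and without tumor replicate 3, and SIL1 on omission of any culture but tumor replicate 1 (adjusted p from 0.0656 to 0.125).

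Of 24 other genes of ER-associated degradation, 4 rose and 4 fell (16.7% each), with a median of -0.04. EDEM2, the mannosidase that starts the trimming of glycoproteins for disposal, stood at 7.61, 7.77 and 7.93 in tumor cultures, against 9.09, 8.85 and 8.69 in normal cultures (-1.11 ± 0.15, adjusted p = 0.00247), and its call was kept without any 1 of the samples. AUP1, a lipid droplet and ER protein that recruits a ubiquitin-conjugating enzyme, fell (-0.71 ± 0.14, adjusted p = 0.0121), while OS9, a lectin that delivers clients to SEL1L (0.83 ± 0.17, adjusted p = 0.0155), and HERPUD2 (0.60 ± 0.13, adjusted p = 0.0191) rose. AUP1 and OS9 were lost without tumor replicate 2 or normal replicate 2 (adjusted p from 0.0503 to 0.0606) and HERPUD2 without tumor replicate 1 (adjusted p = 0.0652) or normal replicate 3 (adjusted p = 0.0503). In this list 1 rose on omission of tumor replicate 1 or 2 or normal replicate 2 or 3, and 2 rose on omission of tumor replicate 3. On omission of normal replicate 2 there was 1 that fell, and on omission of normal replicate 3 or any tumor replicate there were 2.

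**Figure D4:**
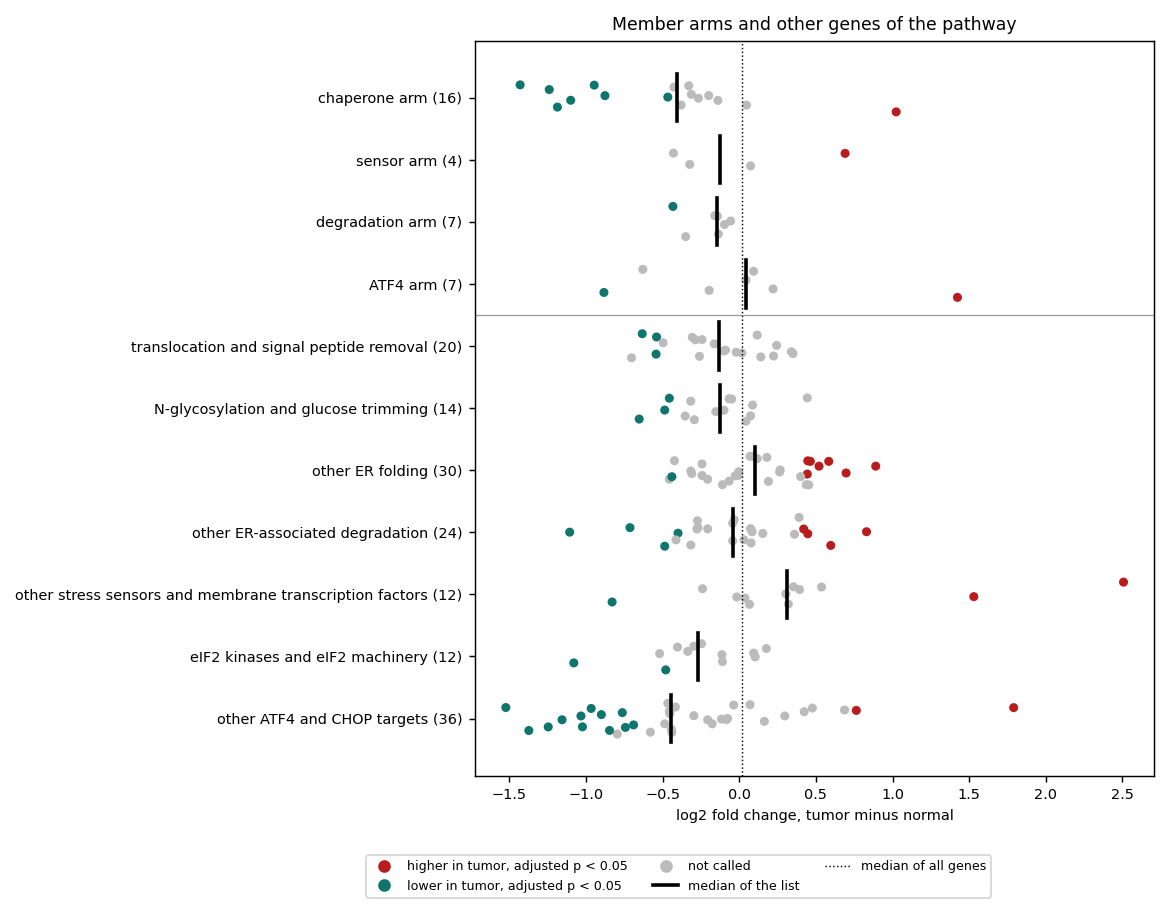
Log2 fold change of tumor minus normal cultures (x axis) of each measured gene in the 4 arms of members (top) and 7 other lists (below), with the number of genes in brackets, the list median as a black bar and the median of all genes as a dotted line. The chaperone arm has a median of -0.40 and the list of other ATF4 and CHOP targets one of -0.45, while other ER folding genes have one of 0.10, and MAP3K5, farthest to the right, is drawn at its fitted value, with normal cultures under the olfactory receptor level.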

How the data were processed

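RNA of 3 tumor and 3 normal stromal cultures was labelled with biotin and hybridised to arrays. Per the submitters' processing notes the authors used RMA, which gives the deposited log2 values; no version is given in the sources used here. The table held 24415 rows in 6 samples. No scanner file or scan date was used here, so batches were not examined.

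Symbols came from the platform's annotation of the rows, which may be dated: 18457 rows had 1 symbol, 688 several and 5270 none here. By Entrez identifier, 17996 rows matched RefSeq genes of ARS-UCD2.0, and 0 symbols changed. Each of 18010 genes was represented by its row with the highest mean. No sequences are shown.

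The test was limma 3.58.1 (R 4.3.3; lmFit, then eBayes; two-sided; neither covariates nor a filter), with Benjamini-Hochberg adjustment over all genes and a threshold of 0.05. Errors are standard errors of log2 fold changes (tumor minus normal), and intervals are 95% intervals from the fit. The code was tested on simulated data.

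The members, arms, lists and olfactory receptor level (717 rows) were chosen with earlier results of these data known. All members are described. Of each other list, up to 4 called genes with the largest change are named. EIF2AK1, EIF2AK2, SERPINH1 and the remaining called targets of ATF4 and DDIT3 are named beside them. The alternatives were 11 settings and leaving out each sample. Deviations from the group means had correlations of 0.05, -0.06 and 0.07 between samples with equal replicate numbers. Between samples with unequal numbers they ran from -0.10 to 0.07. Deviations within a group of 3 are not independent, so this check cannot exclude pairing. The numbers were not taken as pairs in the main fit, and the replicate block is among the alternatives.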

Additional observations from a re-analysis of the deposited data

How the results depend on the processing

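None of the 34 measured members had a called fold change that changed sign under the 17 alternatives. CRELD2, DNAJB11, HYOU1, SDF2L1, DNAJC3 and PPP1R15A kept their call in all 17, and MANF in all but the stricter threshold of 0.01. Of the 22 members not called, 6 were called under at least 1 alternative: HSP90B1, CANX, DNAJB9, ATF6, DERL1 and TRIB3. With array weights, 2362 genes were higher and 2692 lower in tumor cultures, 14 members fell, and 23 other pathway genes rose and 51 fell, with 1 sensor, 2 degradation and 2 ATF4 arm genes that fell. At an adjusted p of 0.01, 661 genes were higher and 636 lower, 1 member rose and 5 fell, and 3 other pathway genes rose and 6 fell; limma then called 0 genes higher in the chaperone and sensor arms (1 each at an unadjusted p under 0.05) and 0 lower in the degradation and ATF4 arms (2 each at an unadjusted p under 0.05). The degradation arm had 2 that fell with the dimmest 25% of genes left out, the olfactory receptor filter or a mean-variance trend, and 0 in limma with median centring, the replicate block or all probe sets (2 at an unadjusted p under 0.05). The chaperone arm had 0 that rose in limma with the replicate block or all probe sets (1 at an unadjusted p under 0.05). With the replicate block, 1345 genes were higher and 1550 lower, and 8 members fell and 2 rose. When 1 sample was left out, genes higher ran from 876 to 1451 and lower from 889 to 1775, members that rose from 1 to 3 and fell from 6 to 11, and other pathway genes that rose from 4 to 16 and fell from 13 to 32. In these limma fits chaperone genes that rose ran from 0 to 1 (1 at an unadjusted p under 0.05 wherever it was 0) and fell from 6 to 8, sensor genes that rose from 0 to 1 and fell from 0 to 1, degradation genes that fell from 0 to 1, and ATF4 arm genes that fell from 0 to 2. The median log2 fold change of all genes moved from 0.02 to -0.003 or 0.003 under the other scalings. Levels near the olfactory receptor level of 3.54 limit how low a dim gene can be read.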
